A study of Homo sapiens with 4 samples.

Results

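The miR-30 family was taken as every name of the sequencing table that reads miR-30 followed by a letter from a to e, with or without an arm. This gave 5 members of the 746 miRNA names listed, namely miR-30a-5p, miR-30b-5p, miR-30c-5p, miR-30d-5p and miR-30e-5p. They were measured by miR-seq, the sequencing of small RNA, in U-251, an established human glioblastoma cell line grown as a single wild-type line. The data comprised 4 libraries labelled as biological replicates of vehicle (DMSO) cells, which formed 1 group, so no conditions could be compared. The vehicle comes from the sample labels, whereas the study speaks of basal, non-irradiated cells. All 5 members had a count in every library.

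MicroRNAs are short RNAs that guide Argonaute proteins such as AGO2 to messenger RNAs and thereby repress them. The target is recognised mainly through the seed, bases 2 to 8 of the mature miRNA, so members of a family that share a seed are expected to share many targets. The miR-30 family is found in most tissues, and known targets of its members include the autophagy gene BECN1, the matrix gene CCN2 and the transcription factor SNAI1, a driver of epithelial-mesenchymal transition. Its 6 hairpin genes lie at 3 loci that hold a pair each.

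The mature sequences below were taken from RefSeq (GRCh38.p14), which matched 3 of the 5 members, and are shown because the seed makes them a family while the bases after it set the members apart. All are written 5′ to 3′ with the seed in capitals.
miR-30a-5p: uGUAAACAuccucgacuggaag
miR-30e-5p: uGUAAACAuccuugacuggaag
miR-30c-5p: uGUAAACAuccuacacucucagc
The 3 sequences had the seed GUAAACA and the first 12 bases in common. Counted from 1 at the 5′ end, miR-30a-5p and miR-30e-5p differed by the single change C13U. Between miR-30a-5p and miR-30c-5p, 5 of the first 22 positions differed, namely C13A, G14C, G18C, G19U and A20C. Among 2370 RefSeq mature names, 3 had this seed at bases 2 to 8 and none of them lay outside the family. The names searched lacked miR-30b-5p and miR-30d-5p, so the search cannot show that no other miRNA has this seed. A target site for the seed reads UGUUUAC. Outside the seed, miR-30d is known to resemble miR-30a and miR-30e, and miR-30b is known to resemble miR-30c.

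The pairing by locus cuts across this resemblance. In the GENCODE annotation of GRCh38, MIR30A occupies bases 71403551 to 71403621 of the minus strand of chromosome 6, within an intron of the long non-coding gene LINC00472. MIR30C2 lies 26519 bases away on the same strand, from 71376960 to 71377031, overlapping an exon of LINC00472. On chromosome 1, MIR30E lies from 40754355 to 40754446 and MIR30C1 from 40757284 to 40757372 on the plus strand. Both lie in introns of NFYC, which encodes a subunit of the CCAAT-binding factor NF-Y, with 2837 bases between them. The third locus holds MIR30B and MIR30D, which lie in an intron of a long non-coding gene. Each locus therefore pairs a hairpin of the miR-30a kind with one of the miR-30c kind. No other annotated miRNA gene lay within 1 Mb of any of the 6 hairpin genes.

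The mature miR-30c-5p of MIR30C1 and that of MIR30C2 have the same sequence, so its counts cannot be assigned to chromosome 1 or 6. Of their mature sequences only those of the opposite arm differ, shown here with the differing bases in capitals.
miR-30c-1-3p: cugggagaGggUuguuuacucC
miR-30c-2-3p: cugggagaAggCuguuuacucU
From the former to the latter the changes were G9A, U12C and C22U. Neither was a name in the table, and of the 4 RefSeq 3p names of these hairpins 0 were listed. Whether reads of a 3p arm were dropped or counted under the 5p name is not given in the sources used here, so a value below is that of the listed name. Hairpin names of the same miRNA could have nearly equal values, as miR-103a-1-5p and miR-103a-2-5p with mean shares of 0.816% and 0.821%. Which arm supplied the reads of a 5p name was not tested.

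Total counts lay between 12363104 and 13214969 per library. In chi-square tests of the 6 pairs of libraries, the statistic per degree of freedom was at least 582.7 for all names and at least 55.2 for the 5 members, so no library repeated another within sampling noise. Of 5 miRNAs typical of glioma cells, all had counts, with a summed share of 5.50% to 9.95% of the counts per library. Markers of other cell types were low. The summed share was at most 0.0217% for erythroid cells, with miR-451a at 0, at most 0.00358% for liver, 0.00340% for epithelium, 0.000391% for muscle, 0.000314% for oligodendrocytes and 0.000290% for white blood cells. It was 0.172% to 0.261% for neurons, almost all of it miR-128-1-5p, with miR-124-5p at 0. The mean share of miR-128-1-5p, 0.202%, was above that of the glioma marker miR-10b-5p.

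miR-30a-5p was the most abundant member. It had 98684, 112273, 106581 and 101195 counts in replicates 1 to 4. These were 0.787%, 0.850%, 0.862% and 0.794% of all counts of the library, with a mean of 0.823% ± 0.0383 (SD, n = 4). The 4 libraries lay close together, with the highest 1.10 times the lowest. In bulk RNA, fewer cells with a miRNA and less of it per cell cannot be told apart, and a share is relative to all other miRNAs. It ranked 19 of 621 names with a value.

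miR-30d-5p, whose gene lies with MIR30B on chromosome 8, was the next. It had 35698, 53072, 44654 and 41061 counts in replicates 1 to 4, or 0.285%, 0.402%, 0.361% and 0.322% of the library, with a mean of 0.342% ± 0.0504 (SD, n = 4). Replicate 1 was the lowest and replicate 2 the highest, 1.41 times as high. miR-30d-5p lay below miR-30a-5p in every library and ranked 34.

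miR-30c-5p, the member with 2 hairpin genes, had 20402, 23501, 25299 and 27143 counts in replicates 1 to 4. These were 0.163%, 0.178%, 0.205% and 0.213% of the library, with a mean of 0.190% ± 0.0233 (SD, n = 4) and rank 46. The highest library was 1.31 times the lowest. How the authors combined the hairpins of a miRNA into 1 value is not given. Of 45 names with counts and more than 1 RefSeq hairpin, 22 had values that are not whole at a tolerance of 1e-06. The other 23, miR-30c-5p among them, were whole in all 4 libraries. So were the other members of the family.

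miR-30e-5p, encoded in NFYC beside MIR30C1, had 23805, 17911, 15781 and 15278 counts in replicates 1 to 4. These were 0.190%, 0.136%, 0.128% and 0.120% of the library, with a mean of 0.143% ± 0.0317 (SD, n = 4) and rank 51. Replicate 1 was the highest, 1.58 times the lowest. The other 3 libraries lay close together below it.

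miR-30b-5p, the partner of miR-30d on chromosome 8, was the least abundant member. It had 2759, 2836, 3582 and 3156 counts in replicates 1 to 4, or 0.0220%, 0.0215%, 0.0290% and 0.0248% of the library. The mean was 0.0243% ± 0.00344 (SD, n = 4) and the rank 114. In replicate 1 its share had a 95% Wilson interval of 0.0212% to 0.0228%. Such intervals cover counting error only, and over the 5 members and 4 libraries their half-width was at most 3.73% of the value.

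**Figure D1:**
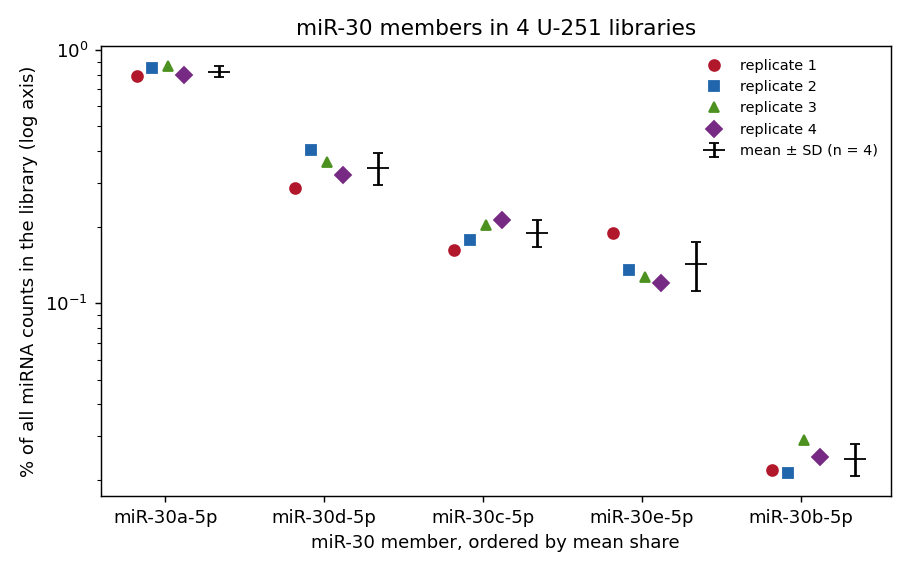
Share of all miRNA counts (%, log axis) of the 5 miR-30 members in each of the 4 libraries, with symbols for replicates and a black mark for the mean ± SD (n = 4). miR-30a-5p lies between 0.787% and 0.862% and miR-30b-5p between 0.0215% and 0.0290%, while miR-30c-5p and miR-30e-5p overlap.

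The order of the members was tested within libraries by the log2 ratio of counts, for all 10 pairs. All members are of nearly equal length, 22 or 23 bases where printed, so counts were compared without correction for length. Differences between sequences in capture or in assignment of reads were neither corrected nor tested. The folds and orders given here are therefore those of counts. In 9 of the 10 pairs the order was the same in all 4 libraries and the ranges of the shares did not overlap. Over all 39060 pairs of the 280 names with at least 10 counts in every library, 91.9% had the same order in every library and the ranges of 89.0% did not overlap, so the members were ordered about as often as names in general. With 4 libraries the smallest p that a two-sided exact sign-flip permutation test can give is 0.125, which these 9 pairs had (Benjamini-Hochberg adjusted over the 10 pairs, 0.139), so none could pass 0.05.

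miR-30a-5p exceeded miR-30d-5p with a mean log2 ratio of 1.28 ± 0.16 (SD, n = 4), or 2.42-fold. miR-30d-5p exceeded miR-30c-5p with 0.85 ± 0.24 (SD, n = 4), or 1.80-fold, the smallest difference among the ordered pairs. This order depends on how the 2 hairpins of miR-30c were combined. After the data had been seen, the count of miR-30c-5p was also doubled. The log2 ratio then averaged -0.15, and miR-30c-5p was the higher one in 3 of 4 libraries. The doubled count was also above that of miR-30e-5p in 4 of 4 libraries. A lower count of miR-30c-5p was not tried. Its order relative to miR-30e-5p under such a rule was therefore not tested.

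The unordered pair was miR-30c-5p and miR-30e-5p, the partners on chromosome 1. The log2 ratio of miR-30c-5p to miR-30e-5p was -0.22 in replicate 1 and 0.39, 0.68 and 0.83 in replicates 2 to 4, with a mean of 0.42 ± 0.47 (SD, n = 4; p = 0.25 in the same exact test, adjusted 0.25). This mean was below the SD between the libraries. Replicate 1 alone had miR-30e-5p above miR-30c-5p, with Wilson intervals of 0.187% to 0.192% and 0.160% to 0.165%. Without replicate 1, all 10 pairs had the same order in every library, as had 94.9% of all pairs of names, and this mean log2 ratio was 0.63.

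miR-30b-5p lay far below both the member it resembles and its locus partner. miR-30c-5p exceeded miR-30b-5p, which it resembles outside the seed, 7.81-fold, with a mean log2 ratio of 2.97 ± 0.13 (SD, n = 4). miR-30d-5p exceeded miR-30b-5p, its partner, 14.1-fold, with a mean log2 ratio of 3.82 ± 0.28 (SD, n = 4). By library, 12.9, 18.7, 12.5 and 13.0 counts of miR-30d-5p were listed per count of miR-30b-5p. Replicate 2 stood above the other 3 libraries, which lay close together. miR-30a-5p exceeded its possible partner miR-30c-5p 4.36-fold, with a mean log2 ratio of 2.13 ± 0.18 (SD, n = 4).

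The whole family held 1.45%, 1.59%, 1.58% and 1.47% of the counts in replicates 1 to 4, with a mean of 1.52% ± 0.0735 (SD, n = 4). The miR-29 and miR-181 families, which also have several loci, are given for scale, with no test of the difference. All their names are of the 5p arm, and whether they hold 3p reads is likewise not given. miR-29b entered as miR-29b-1-5p with 0.0293% and miR-29b-2-5p with 0.0237%, while miR-30c-5p entered as a single name. The sums are therefore those of listed names and are not built alike. The 4 miR-29 names together held 0.535% ± 0.0509 (SD, n = 4) and the 4 miR-181 names 0.563% ± 0.0647 (SD, n = 4). The miR-30 share was 2.61 to 3.06 times that of miR-29 and 2.48 to 3.07 times that of miR-181 in single libraries.

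By locus, chromosome 6 led through miR-30a-5p alone. miR-30a-5p made up 54.4%, 53.6%, 54.4% and 53.9% of the family counts in replicates 1 to 4. Its mean of 54.1% ± 0.418 (SD, n = 4) varied by 0.773% of its value. As miR-30a-5p is itself the largest part of the family sum, changes in its count move this share less than in proportion. Shifts among the other members can also cancel in that sum. The chromosome 8 members together made up 21.2%, 26.7%, 24.6% and 23.5%, with a mean of 24.0% ± 2.28 (SD, n = 4). Nearly all of this was miR-30d-5p, since miR-30b-5p held 1.60% ± 0.205 (SD, n = 4) of the family. miR-30e-5p of chromosome 1 made up 13.1%, 8.55%, 8.06% and 8.13%, with a mean of 9.47% ± 2.45 (SD, n = 4). Replicate 1 was the high one. The remaining 12.5% ± 1.55 (SD, n = 4) was miR-30c-5p, which belongs to chromosome 1, chromosome 6 or both.

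The place of chromosome 6 did not depend on that assignment. miR-30a-5p alone exceeded the chromosome 8 pair, and also miR-30e-5p with all of miR-30c-5p added, in 4 of 4 libraries. The order of the other loci did depend on it. With all of miR-30c-5p counted to chromosome 1, this locus held 24.4%, 19.8%, 21.0% and 22.6% of the family, and chromosome 8 was above it in 3 of 4 libraries, replicate 1 being the exception. With an equal split, chromosome 1 held 15.7% ± 2.10 (SD, n = 4) and chromosome 6 held 60.3% ± 0.874 (SD, n = 4), and chromosome 8 was above chromosome 1 in all 4 libraries.

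**Figure D2:**
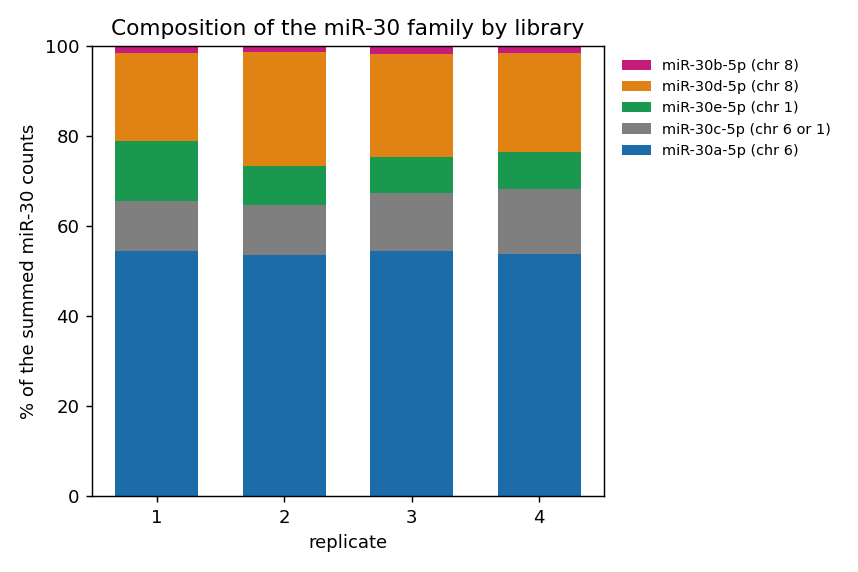
Share of the summed miR-30 counts (%) held by each member in each of the 4 libraries, as bars stacked to 100%, with the chromosome of each member in the key. The miR-30a-5p part stays between 53.6% and 54.4%, while miR-30e-5p holds 13.1% in replicate 1 and 8.06% to 8.55% in the others.

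Grouped by sequence, miR-30a-5p, miR-30d-5p and miR-30e-5p together had 6.83, 6.96, 5.78 and 5.20 times the counts of miR-30b-5p and miR-30c-5p in replicates 1 to 4. The mean was 6.19 ± 0.846 (SD, n = 4). The former held 83.9% to 87.4% of the family. Within a locus, the member of the miR-30a kind was the higher one in 4 of 4 libraries for miR-30a-5p against miR-30c-5p and for miR-30d-5p against miR-30b-5p. For miR-30e-5p against miR-30c-5p this held in 1 of 4 libraries. In both comparisons with miR-30c-5p its value can hold products of both of its loci. Without miR-30c-5p the ratio was 54.6, without miR-30a-5p 2.30.

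The spread between libraries differed among the members. miR-30a-5p had a coefficient of variation of 4.66%, and only 1.07% of the 280 names with at least 10 counts in every library had a lower one. Counting error alone would give 0.309%. The median of these names was 20.1%, and that of the 103 names with at least 2759 counts in every library, the lowest count of any member, was 15.1%. The values of miR-30c-5p, miR-30b-5p and miR-30d-5p were 12.3%, 14.1% and 14.7%, and that of miR-30e-5p was 22.1%. These coefficients and their order depend on the scaling. That of miR-30a-5p was 2.39% with TMM factors and 5.03% with upper-quartile factors over the 280 names, but 13.9% with upper-quartile factors over all names, a setting chosen after seeing the data. With these last factors 21.1% of the names varied less than miR-30a-5p, and miR-30c-5p and miR-30b-5p, each at 25.3%, varied more than miR-30d-5p at 17.5% and miR-30e-5p at 14.9%, against a median of 23.8%. miR-30e-5p lay above the median of the 280 names with shares and with TMM factors (23.4% against 19.3%), but below it with upper-quartile factors over the 280 names (19.4% against 19.9%) and over all names. Without replicate 1 the coefficient of miR-30e-5p fell to 6.15%, while the median of the 280 names fell as well, to 14.4%. Without replicate 3 that of miR-30b-5p fell to 7.77%, with a median of 20.3%.

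**Figure D3:**
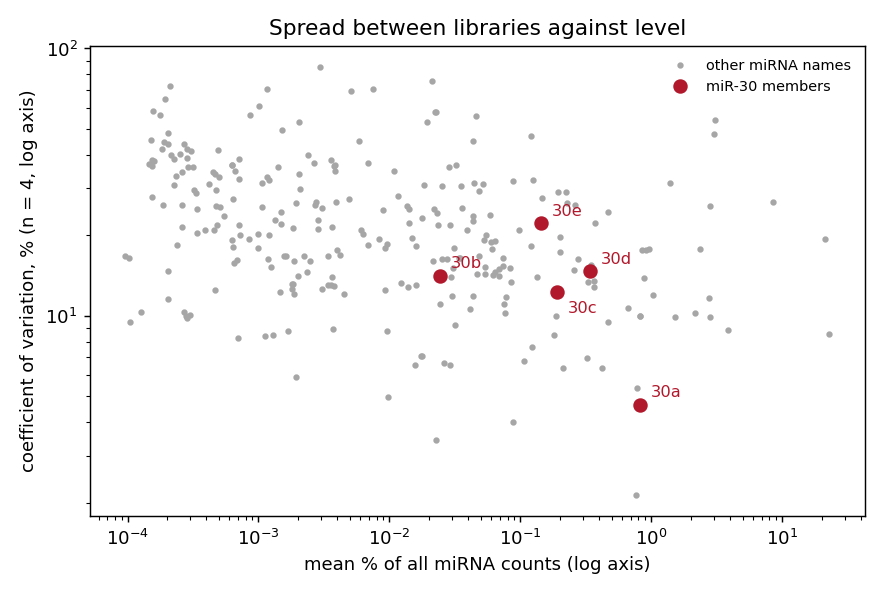
Coefficient of variation over the 4 libraries (%, log axis) against the mean share of all miRNA counts (%, log axis) for the 280 names with at least 10 counts in every library, with the miR-30 members in red. miR-30a-5p lies near the lower edge at 4.66%, and miR-30e-5p lies highest of the members at 22.1% on this scale of shares.

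Replicate 1 was examined further because miR-30e-5p moved with it. Relative to the mean of the other libraries, the log2 share in replicate 1 was 0.57 higher for miR-30e-5p, against -0.34 for miR-30d-5p, -0.28 for miR-30c-5p, -0.18 for miR-30b-5p and -0.09 for miR-30a-5p. The median of the 280 names was -0.05, and 83.6% of them had a lower value than miR-30e-5p. A library stood apart from the other 3, by Dixon's ratio at its 95% critical value for 4 samples, for 31 of the 280 names (11.1%), and for 21 of the 31 it was replicate 1. With shares of all counts, none of the 5 members passed. With TMM or upper-quartile factors over the 280 names miR-30e-5p did, with ratios of 0.915 and 0.892, where 13.6% and 13.9% of the 280 names passed. What sets replicate 1 apart was not tested.

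The evenness of the ratios between members was set beside that of other names. The SD of the log2 ratio over the 4 libraries had a median of 0.26 over the 10 member pairs, against 0.44 over all 39060 pairs and 0.31 over the 5253 pairs of the 103 names with at least 2759 counts in every library. Among pairs without miR-30e-5p the SD was 0.13 to 0.28, and among the 4 pairs with it 0.33 to 0.47. For the 3 pairs of partners of a locus the SDs were 0.18 for miR-30a-5p and miR-30c-5p, 0.28 for miR-30d-5p and miR-30b-5p and 0.47 for miR-30c-5p and miR-30e-5p, with a median of 0.28, while the other 7 pairs had a median of 0.24. The 4 pairs that resemble each other outside the seed had a median of 0.25, from 0.13 for miR-30c-5p and miR-30b-5p to 0.46 for miR-30d-5p and miR-30e-5p. These are descriptions over 4 libraries, and differences between such groups of pairs were not tested.

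**Figure D4:**
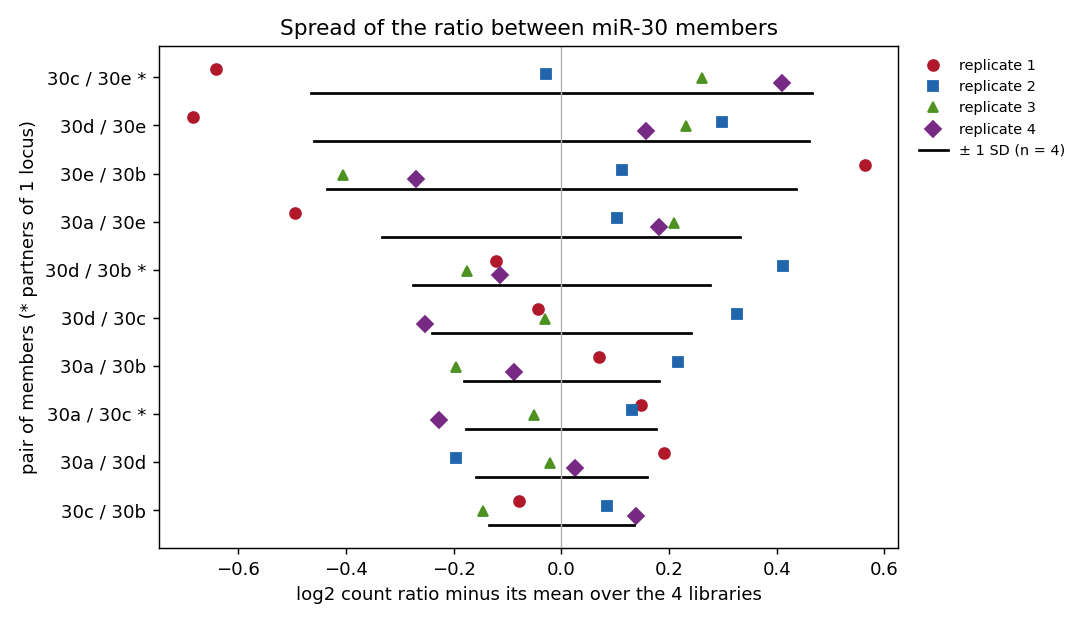
Log2 count ratio of each pair of members in each library, minus its mean over the 4 libraries, with black lines for ± 1 SD (n = 4) and asterisks for partners of a locus. Pairs are ordered by SD, from 0.13 for miR-30c-5p and miR-30b-5p to 0.47 for miR-30c-5p and miR-30e-5p, and replicate 1 lies at an end in the 4 pairs with miR-30e-5p.

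The names next in rank place the members in the table as a whole. miR-30a-5p lay between miR-92a-2-5p with 0.844% ± 0.149 (SD, n = 4) and miR-103a-2-5p with 0.821% ± 0.0822 (SD, n = 4). miR-30d-5p lay between miR-181a-5p and let-7d-5p, miR-30c-5p between miR-7-5p and miR-151b, miR-30e-5p between miR-432-5p and miR-148b-5p, and miR-30b-5p between miR-589-5p and miR-149-5p. These places are those of mean shares. Of the 10 neighbours, 0 kept the same order to their member in all 4 libraries. The share of miR-149-5p varied most, with 0.0242% ± 0.0280 (SD, n = 4).

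The SD over 4 libraries of the log2 ratio to the summed family was lowest for miR-24-2-5p, at 0.04. Next came miR-361-5p with 0.05, miR-320b with 0.05, miR-28-5p with 0.06 and miR-320c with 0.07. The median SD of the 275 names outside the family was 0.28. The family share had a coefficient of variation of 4.83%, and the shares of these 5 names had 2.14% to 7.65%. A low SD can thus come from names that vary little, and shared movement was not tested. Of the 5 names, 0 remained among the 5 lowest without replicate 1 and 1 each without replicate 2 or 3, so 4 libraries do not fix this list.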

How the data were processed

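miRNA counts of 4 U-251 libraries were analysed. According to the methods a miRNA library kit was used, while the labels describe oligo-dT capture of mRNA. Base calling with bcl2fastq 2.20, adaptor trimming, a filter on read length, mapping with Bowtie to hg38 and counting with miRDeep2 were done by the authors. The deposited values are estimated counts per miRNA name without normalization, and 40 names hold values that differ from a whole number by more than 1e-06. The normalization by upper quartile that the methods state was not applied to them. A blank was treated as 0. All columns matched a sample.

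Python 3.11.15 with numpy 2.4.6, scipy 1.17.1 and pandas 2.3.3 gave shares, Wilson intervals, exact sign-flip permutation tests and Dixon's ratio, and matplotlib 3.10.9 drew the plots. Normalization factors came from DESeq2 1.42.0 and edgeR 4.0.16 (R 4.3.3) on rounded counts. The steps were tested on simulated data. Hairpin genes came from GENCODE release 44 and sequences from RefSeq. The members and lists were chosen with earlier results of these data known. Named miRNAs are the members, their neighbours in rank, the 5 most like the family and the miR-29 and miR-181 families. Also named are miR-103a-1-5p, the other hairpin name of a neighbour in rank, and cell type markers. Of the markers, miR-223 and miR-206 were not among the names listed. Some coordinates and sequences are not reported here. Alternatives covered the scaling, the denominator, the assignment of miR-30c-5p and leaving out each replicate.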

Additional observations from a re-analysis of the deposited data

Results flagged for a closer look

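Dixon's ratio, the gap of the most distant library over the whole range, was computed for 23 results on the members. In 4 of them it exceeded its 95% critical value, against about 1.15 expected by chance. In these libraries the same rule called 11.1% of the 280 names with at least 10 counts in every library. They are not independent, since 3 of them hold miR-30e-5p and the same library.

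The share of miR-30e-5p in the family had a ratio of 0.903, since replicate 1 had 13.1% and the rest 8.06% to 8.55%. The log2 ratio of miR-30a-5p to miR-30e-5p had 0.847, from 2.05 in replicate 1 against 2.65 to 2.76. The log2 ratio of miR-30d-5p to miR-30e-5p had 0.857, from 0.58 in replicate 1 against 1.43 to 1.57. The log2 ratio of miR-30d-5p to miR-30b-5p had 0.895, from 4.23 in replicate 2 against 3.64 to 3.70. No explanation of these values was tested.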

How the results depend on the processing

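Of the alternatives for the main results, 147 gave values within a set limit and 42 did not. The limit was the spread between replicates or, for a count, 1.5 times. For a coefficient of variation it was the SD of its values with 1 replicate left out, which are themselves among the alternatives. With miR-30c-5p doubled, a setting chosen after seeing the data, its share was 0.378%, the family share 1.71%, the chromosome 6 and chromosome 8 shares of the family 48.1% and 21.4%, the sequence ratio 3.28, the log2 ratio of 30a to 30c 1.13 and of 30e to 30c -1.42, by construction, and the log2 ratio of miR-30d-5p to miR-30c-5p turned to -0.15. With all of 30c counted to 1 locus, chromosome 6 held 66.5% or chromosome 1 held 21.9% of the family, and with an equal split 60.3% and 15.7%. The sequence ratio was 5.10 from mean log2 counts, 2.30 without 30a, 4.58 without 30d and 54.6 without 30c.

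The number of members with a library standing apart was 1 with upper-quartile factors and 1 with TMM factors. With TMM factors the coefficients of variation of 30a, 30d and 30c were 2.39%, 11.2% and 14.9%, and with upper-quartile factors that of 30c was 16.1%. With upper-quartile factors over all names, chosen after seeing the data, those of 30a, 30c and 30b were 13.9%, 25.3% and 25.3%. The cause was not tested. Leaving out 1 replicate gave 4.25% to 5.11% for 30a, 11.0% to 17.8% for 30d, 6.15% to 26.3% for 30e, 9.23% to 14.0% for 30c and 7.77% to 17.4% for 30b, and 0 to 4 of the 5 most similar miRNAs.

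Ranked within single libraries, miR-30a-5p was 21 in replicate 2, miR-30d-5p was 32, 31 and 30 in replicates 2, 3 and 4, miR-30e-5p was 45 in replicate 1, miR-30c-5p was 41 in replicates 3 and 4, and miR-30b-5p was 104 and 106 in replicates 3 and 4. Among names with at least 10 counts in every library miR-30d-5p ranked 32. No paired analysis was possible because there is a single group. The 4 libraries limit the order tests, which cannot reach p below 0.125.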
